A study of Mus musculus and other sequences with 2 samples.

Results

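The miR-34 and miR-449 sequences, and miR-192 with its partners miR-194 and miR-215, are microRNAs (miRNAs) linked to the tumour suppressor p53, and they were followed here in the culture media of mouse blastocysts. Assays were chosen by name alone, as every mouse assay of the array for miR-34a, miR-34b, miR-34c, miR-449 with any letter, miR-192, miR-194 or miR-215 that was not marked as a minor arm (#). They comprised mmu-miR-34a, mmu-miR-34b, mmu-miR-34b-3p, mmu-miR-34b-5p, mmu-miR-34c, mmu-miR-449, mmu-miR-449b, mmu-miR-192, mmu-miR-194 and mmu-miR-215, and the prefix for mouse is left out below. This gave 11 of 750 miRNA assays, under 10 different names, of which 8 belonged to the miR-34 and miR-449 family and 3 to the miR-192 group. Conditioned media came from a single 8 μL microdroplet in which 25 CD1 embryos, compacted or cavitating morulae when selected, were cultured for 17 h, from 99 to 116 h post-hCG, and 6 μL of it was lysed. The embryos were pooled from superovulated females, 3 weeks old by the labels and 3 to 4 weeks old by the study's methods, that had been mated naturally with CD1 males. Blank media was an equivalent microdroplet that was kept for 17 h without embryos. Both media were KSOM without BSA, in which 0.1% PVA, a synthetic macromolecule, took the place of the protein. Both were run once on a TaqMan rodent array of 2 cards, A and B, which leaves 1 sample per condition and no test between media. Mouse assays of miR-290 to miR-295, the cluster that marks the early embryo, were set beside them, with minor arms left out. In conditioned media 10 of these 14 had a Ct below 35, beside 37.3% of all miRNA assays. In blank media 0 of 14 did, beside 29.1% of all.

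p53 is a transcription factor that answers DNA damage and other stress by arresting the cell cycle or by inducing apoptosis. Mir34a and the Mir34b/Mir34c pair are among its direct transcriptional targets, and their miRNAs repress mRNAs of cell cycle and survival genes such as Cdk6, Ccnd1, Myc and Bcl2. The miR-449 sequences share the target motif of miR-34 and are best known from multiciliated epithelia and testis, where miR-34b and miR-34c are also abundant, and miR-34c is a known component of spermatozoa. miR-192 and miR-215 are close relatives, miR-194 is made from the same primary transcripts, and p53 has been found to induce all 3 in human cell lines, while in adult tissues they are best known from liver, intestine and kidney.

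The mature sequences show which assays read related miRNAs. They are given 5′ to 3′ from RefSeq (mouse assembly GRCm38.p6), with the seed, bases 2 to 8, in capitals. The assays miR-34a, miR-192, miR-194, miR-215 and miR-449, named without an arm, were taken as the 5p arm, and miR-449 as miR-449a. The assays miR-34c and miR-449b and that named miR-34b were matched to no sequence here, and no seed is given for them.
miR-34a-5p: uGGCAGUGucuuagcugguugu
miR-34b-5p: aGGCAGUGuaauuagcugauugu
miR-449a-5p: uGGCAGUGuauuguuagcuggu
miR-34b-3p: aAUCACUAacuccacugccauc
miR-34c-3p: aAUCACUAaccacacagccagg
miR-192-5p: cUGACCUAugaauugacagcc
miR-215-5p: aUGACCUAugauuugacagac
miR-194-5p: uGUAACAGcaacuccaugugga

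The seed GGCAGUG was shared by miR-34a-5p, miR-34b-5p, miR-449a-5p and miR-449c-5p among the 1679 mature names compared, which did not include miR-34c-5p or miR-449b. The opposite arms of the Mir34b and Mir34c hairpins shared a different seed, AUCACUA, which no other name held. miR-192-5p and miR-215-5p shared UGACCUA and differed at 3 of 21 positions, which are C1A, A12U and C20A when counted from the 5′ end of miR-192-5p. miR-34b-3p and miR-34c-3p had the same base at 17 of 22 positions and shared their first 10. miR-34a-5p and miR-449a-5p shared their first 9 bases and had the same base at 15 of 22 positions. GUAACAG, the seed of miR-194-5p, was found in no other name.

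In GRCm38.p6, miR-34a-5p lies at chr4:150068473-150068494 on the plus strand, with no other miRNA gene within 2 kb. miR-34b-3p lies at chr9:51103574-51103595 and miR-34c-3p at chr9:51103044-51103065, both on the minus strand, and their hairpins neighbour each other. Both lie within the bounds of Btg4, a factor of maternal mRNA decay, and of Hoatz. miR-449a-5p lies at chr13:113037549-113037570 on the plus strand, beside Mir449b and Mir449c and within the bounds of Cdc20b, a gene of multiciliated cells. miR-192-5p lies at chr19:6264857-6264877 on the plus strand, with 115 bases between its hairpin and that of Mir194-2. miR-215-5p lies at chr1:185313610-185313630 on the plus strand, with 195 bases between its hairpin and that of Mir194-1, both within the bounds of Iars2, a mitochondrial tRNA synthetase. The mature miR-194-5p of both loci is identical, so that the miR-194 assay cannot tell chromosome 1 from chromosome 19. Whether a hairpin is exonic or intronic is not given in the sources used here.

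Values are Ct, the cycle at which the fluorescence of a well crosses a threshold. Ct runs against amount on a log2 scale, and a well that crossed no threshold within 40 cycles is undetermined. A sequence was called detected at a Ct below 35, and wells without a Ct counted as not detected. The study also required a minimum height of the fluorescence signal, and called a smaller share of its miRNAs detected in each medium. Which of the blank media calls below would pass that filter was not examined. In conditioned media 6 of the 11 assays were detected, which were miR-34a, miR-34b-3p, miR-34c, miR-449, miR-192 and miR-194. Of all 750 miRNA assays, 37.3% were. In blank media 5 of the 11 were detected, all of these but miR-34c, beside 29.1% of all assays, and the same 5 were thus detected in both media, as 23.5% of all assays were. A Ct in conditioned media only was found for 1 of the 11, beside 13.9% of all assays, and in blank media only for 0 of the 11, beside 5.6% of all assays. The other 5 assays, miR-34b-5p, miR-34b, both assays named miR-449b and miR-215, were undetermined in both media. Of all assays, 52.3% were undetermined in both and 57.1% detected in neither. The 6 detected assays were among the 8 on card A, and 0 of the 3 on card B was detected. In conditioned media the share detected was 39.8% over the whole of card A and 34.8% over card B. The cards are separate reverse transcription and pre-amplification reactions, so that members on different cards differ in more than their sequence.

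**Figure D1:**
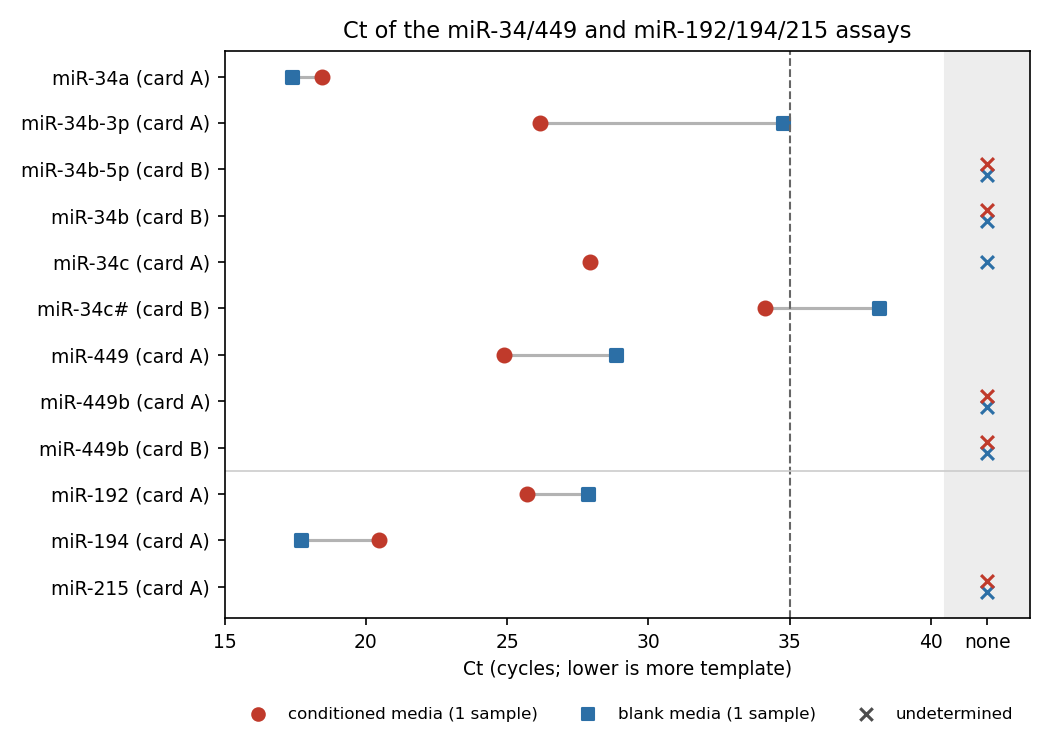
Ct of each assay of the miR-34 and miR-449 family (above the line) and of the miR-192 group (below it), with conditioned media as circles, blank media as squares and undetermined wells as crosses in the shaded band, each point being 1 well. The dashed line marks a Ct of 35, the minor arm miR-34c# is shown for comparison, and miR-34b-3p spans the widest gap among assays with a Ct in both media, from 26.1 to 34.8.

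The error between wells was taken from U6, a small nuclear RNA spotted in 4 wells per card. On card A, which held all detected members, its Ct had an SD of 0.68 with embryos and 3.22 without (n = 4 wells). The latter rested on a well at 20.2 beside 3 wells between 26.3 and 27.1, without which the SD was 0.49. The SD of a difference between single wells was therefore 3.29 cycles with all U6 wells, or 0.50 cycles without the farthest well of each sample. This is a spread between wells, not between embryos or cultures. Exceeding this SD does not by itself set a difference apart from the spread. The U6 wells of card A came 4.08 cycles earlier with embryos than without, on average, and those of card B 7.07 cycles earlier. U6 thus itself differed between the media, and every difference relative to U6 includes this shift. Such differences are given as an alternative and do not by themselves show a rise or fall in amount.

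The Mir34b and Mir34c pair held the largest measured difference among the members and the only sequence found with embryos alone. miR-34b-3p, the 3p arm of Mir34b, had Ct values of 26.1 (conditioned) and 34.8 (blank). Its Ct was 8.62 cycles earlier in conditioned media, which would be 392-fold if every cycle doubled the template. Among the 176 assays detected in both media, 5 had a more negative difference. It was the only member beyond the study's limit of 5 cycles, which 19 of the 176 (10.8%) passed in this direction. The difference exceeded the SD between wells under either reading of U6. However, the latest U6 well of card A came at 27.1, and the spread of wells near a Ct of 35 was not measured. Relative to U6 of the same card it was -4.53 cycles, and it no longer passed 5 cycles, which 1.7% of the 176 did. The blank value stood just inside the limit of detection, at rank 216 of the 218 assays detected there, where rank 1 is the lowest Ct, and 6 of all assays had a Ct within 0.5 cycles of the limit in blank media.

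miR-34c, whose gene neighbours Mir34b and which is known from spermatozoa, was found at a Ct of 27.9 in conditioned media. No Ct was obtained for it in blank media, and it was the only member with a Ct in conditioned media alone. The study had already listed miR-34c among its sequences exclusive to conditioned media. It raises sperm left bound to the outer coat of the embryo as a possible contributor, which was not tested here. A well that crossed no threshold in 40 cycles would lie at least 12.1 cycles later than the well of conditioned media. Its rank by Ct was 185 of the 280 assays detected in conditioned media. The minor arm of the same hairpin, miR-34c#, was measured on card B, with Ct values of 34.1 (conditioned) and 38.2 (blank). It was 4.04 cycles earlier with embryos, less than the 7.07 cycles of U6 on that card. Thus 3 sequences of the pair, miR-34b-3p, miR-34c and miR-34c#, had an earlier Ct with embryos than without when no reference was taken, the blank well of miR-34c being undetermined, whereas relative to U6 miR-34c# was 3.03 cycles later.

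The 5p arm of Mir34b was not detected. The assay miR-34b-5p, and that named miR-34b without an arm, both on card B, had no Ct with or without embryos. The seed of miR-34b-5p is that of miR-34a, whereas the detected miR-34b-3p carries AUCACUA. An undetermined well says only that no threshold was crossed, and how well each assay amplifies was not tested.

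miR-34a, which is encoded alone and is the best studied p53 target of the family, had Ct values of 18.4 (conditioned) and 17.4 (blank). It had the lowest Ct of all members in both media, and was 1.06 cycles later with embryos. This is within the SD of 3.29 cycles between wells and beyond the 0.50 cycles found without the farthest U6 wells. Relative to U6 it was 5.14 cycles later with embryos. miR-34a ranked 71 of 280 in conditioned media and 69 of 218 in blank media. It therefore had about as early a Ct without embryos as with them. A Ct below 20, a limit chosen after the values were seen, was found in 11.6% of all assays in conditioned media. In blank media it was found in 11.2%. Whether Ct values this early, which miR-194 also had in blank media, reflect template was not tested.

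miR-449, which shares the first 9 bases of miR-34a, had a difference of the opposite sign without a reference and of the same sign relative to U6. Its Ct values were 24.9 (conditioned) and 28.9 (blank), 3.99 cycles earlier with embryos, and 27 of the 176 assays had a more negative difference. This exceeded the SD between wells under either reading, but only by a little with all U6 wells (3.29 cycles), and so was not set apart from that spread. It was about as large as the shift of U6, and relative to U6 the difference was 0.09 cycles. Compared directly with miR-34a, without any reference, the difference of miR-449 was 5.05 cycles lower. Both assays of miR-449b, which is encoded beside miR-449a, were undetermined in both media, 1 on each card.

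miR-192 and miR-194 had differences of opposite sign without a reference and of the same sign relative to U6. miR-192 had Ct values of 25.7 (conditioned) and 27.9 (blank), and was thus 2.17 cycles earlier with embryos. miR-194 had Ct values of 20.4 (conditioned) and 17.7 (blank), and was 2.73 cycles later. Both are within the SD of 3.29 cycles and beyond that of 0.50 cycles. Between the 2 assays the difference was 4.90 cycles, and Mir192 and Mir194-2 are neighbours on chromosome 19. Relative to U6, miR-192 was 1.92 cycles later with embryos, so that its direction depended on the reference, and miR-194 was 6.82 cycles later.

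miR-215, which differs from miR-192 at 3 bases, was undetermined in both media, on the same card and in the same reactions in which miR-192 had its Ct. Its neighbour on chromosome 1 is Mir194-1. The miR-194 Ct could not be assigned to either locus, and of their other miRNAs only that of chromosome 19, miR-192, had a Ct. miR-122, the marker of liver set for comparison, was undetermined in both media.

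**Figure D2:**
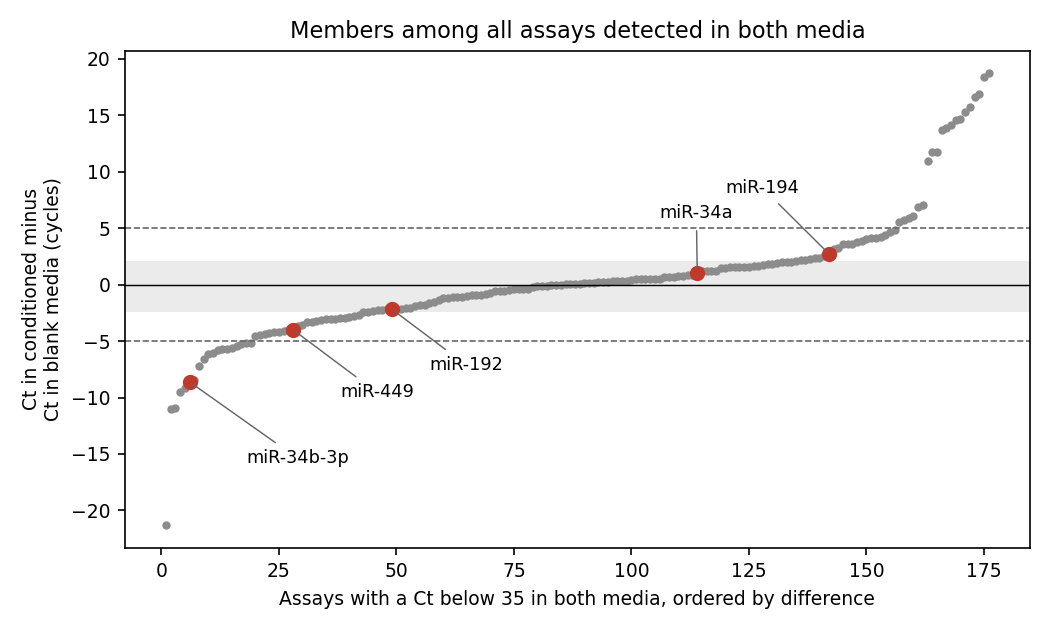
Conditioned minus blank Ct (y axis, cycles) for the 176 assays with a Ct below 35 in both, in order of the difference, each point being 1 assay measured in 1 well per sample. The shaded band is the middle range from -2.35 to 1.97 cycles (quartiles), dashed lines mark 5 and -5 cycles, and the 5 members in red spread from miR-34b-3p at the low end to miR-194 above the band.

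Across the 5 members detected in both media, the difference ranged from -8.62 to 2.73 cycles with a median of -2.17, beside a median of 0.05 over all 176 assays. Of the 5, 3 were earlier with embryos, and 48.3% of the 176 were. The members therefore did not share a sign when no reference was taken. miR-34a and miR-192 lay between the quartiles of all assays, miR-194 lay above the upper quartile, and miR-449 and miR-34b-3p lay below the lower. A difference of the opposite kind, more than 5 cycles later with embryos, was found for 0 of the 5 and for 11.4% of the 176. Relative to U6 it was found for 2 of the 5, miR-34a and miR-194, and for 55.1% of the 176.

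**Figure D3:**
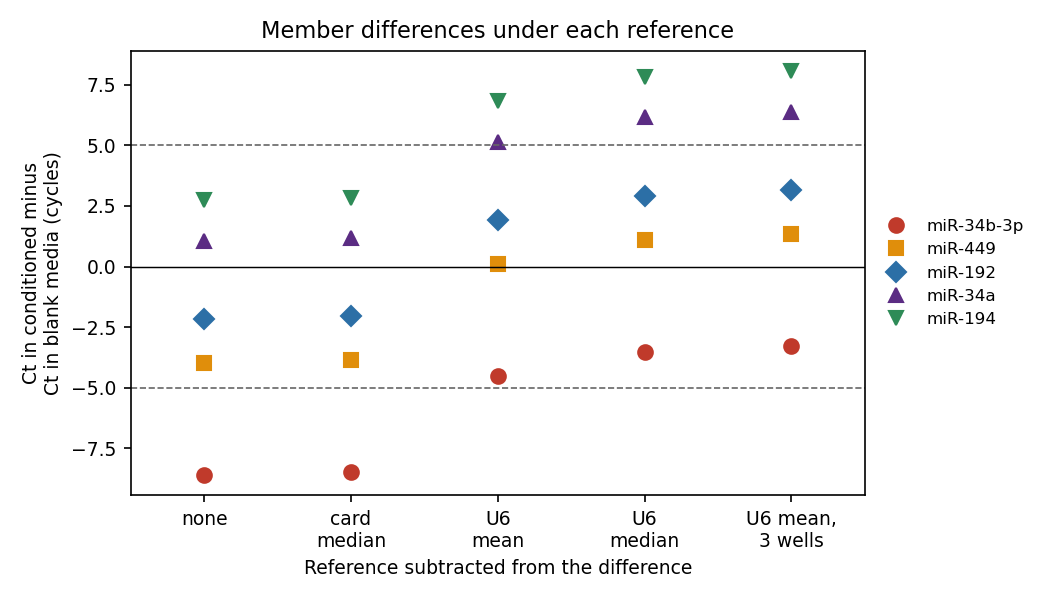
Conditioned minus blank Ct (y axis, cycles) of the 5 members detected in both media, with nothing subtracted, relative to the median of all such assays of the card, and relative to U6 by its mean, its median or the mean of 3 wells. The order of the members is fixed because all lie on card A, and miR-192 and miR-449 lie below 0 without U6 and above it with U6.

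By Ct within conditioned media, the members came in the order miR-34a, miR-194, miR-449, miR-192, miR-34b-3p and miR-34c. The step from miR-192 to miR-34b-3p, of 0.45 cycles, was smaller than the SD of 0.68 of all U6 wells in that sample. It was larger than the 0.09 without the farthest well, and the step from miR-449 to miR-192, of 0.82 cycles, exceeded both. Here and below these are SDs of single wells. The SD of a step between wells is larger, so that exceeding them does not set a step apart from the spread. In blank media the order was miR-34a, miR-194, miR-192, miR-449 and miR-34b-3p. There the step from miR-34a to miR-194, of 0.33 cycles, was smaller than the SD of U6 wells under either reading, and that from miR-192 to miR-449, of 1.00 cycles, was smaller than the SD of all U6 wells and larger than the 0.49 without the farthest well. Between miR-194 and miR-192 the step was 10.2 cycles in blank media. miR-34a and miR-194 thus had the lowest Ct of the members in both media and were later with embryos than without. With no reference taken, miR-449, miR-192 and miR-34b-3p were earlier with embryos and miR-34c had a Ct only with them, and relative to U6 miR-449 and miR-192 did not keep this direction. Assays differ in efficiency, and this is therefore not an order of amounts.

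Because miR-34b, miR-34c and miR-449 are abundant in testis, 20 assays of other testis and sperm miRNAs were set beside them. In conditioned media 7 of the 20 had a Ct below 35, from 18.5 to 33.5, and in blank media 7 of the 20, from 21.3 to 33.4, which is 35% in each, beside 37.3% and 29.1% of all assays. Those with no Ct in either medium numbered 11. miR-465b-5p was the only sequence of this list found in conditioned media alone, with a Ct of 28.1, and miR-883B-5P the only one found in blank media alone, with a Ct of 21.3. miR-743b-5p had Ct values of 26.2 (conditioned) and 33.4 (blank), a difference of -7.24 cycles, whereas miR-743a had 27.2 and 23.4 and so was later with embryos. Of the 6 detected in both media, 3 were earlier and 3 later in conditioned media. Among 8 assays of erythroid and leukocyte miRNAs, 5 were detected in conditioned media (62.5%) and 6 in blank media (75%), none of them in conditioned media alone, and the erythroid miR-451 and miR-144 were undetermined in both. The part of sperm or other cells in the Ct of the miR-34 sequences was not tested.

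Other miRNAs with a link to p53 were described from a list of 12 assays under 10 names, with miR-143 and miR-200c each counted on both cards. The list was chosen with earlier results of these data known, so its shares are a description and no test. The study had already listed miR-16, miR-125b-5p, miR-143 and miR-200c among its sequences exclusive to conditioned media. In conditioned media 9 of the 12 (75%) were detected, beside 37.3% of all assays, and in blank media 4 (33.3%), beside 29.1%, and 5 of the 12 in conditioned media only, beside 13.9% of all assays. Over the 4 detected in both media the median difference was -2.66 cycles, beside 0.05 over all 176 assays. p53 promotes the maturation of miR-16, miR-143 and miR-145 from their precursors. miR-16 was found in conditioned media only, at a Ct of 27.3. The card A assay of miR-143 likewise gave a Ct with embryos only, of 28.9, and the card B assay gave 21.5 with embryos and 27.1 without. miR-145, which is made from the same transcript as miR-143, had a difference of the opposite sign, with Ct values of 31.7 (conditioned) and 13.3 (blank). Its blank well was among the 11.2% of all assays with a Ct below 20 there, and whether it reflects template was not tested. The assays of this group thus differed in sign when no reference was taken, but only through this early well. The difference of the card B assay of miR-143, -5.63 cycles, was smaller than the shift of U6 on that card.

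Of the miRNAs that p53 induces by transcription, both assays of miR-200c had a Ct in conditioned media only, of 25.2 on card A and 23.9 on card B. miR-141, from the same cluster, had Ct values of 36.6 (conditioned) and 38.6 (blank), both above the limit. miR-107 and miR-22 were undetermined in both. Among the miRNAs directed at the mRNA of p53 itself, miR-125b had a Ct of 32.1 with embryos and 39.2 without. miR-25 had 29.4 and 31.9, and miR-30d had 29.6 and 32.4. These differences of miR-25 and miR-30d, like that of miR-192, were smaller than the shift of U6 on card A.

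**Figure D4:**
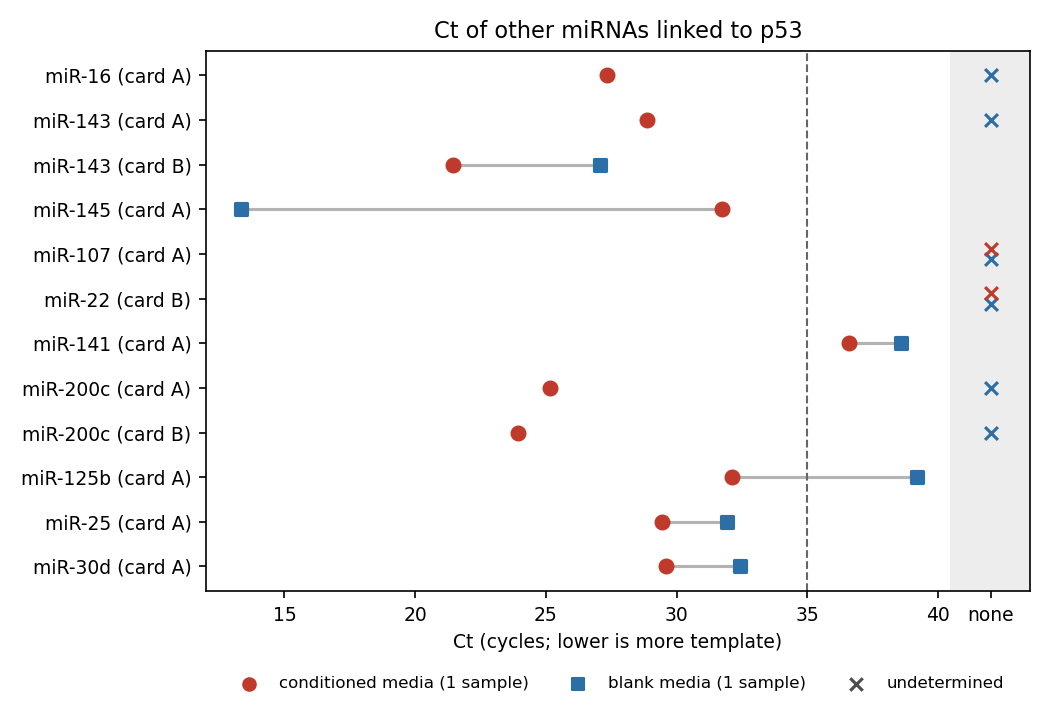
Ct of 12 assays of other miRNAs linked to p53, in the order maturation (miR-16, miR-143, miR-145), transcription (miR-107, miR-22, miR-141, miR-200c) and miRNAs directed at p53 (miR-125b, miR-25, miR-30d), with conditioned media as circles, blank media as squares and undetermined wells as crosses. The dashed line marks a Ct of 35. The longest span is that of miR-145, from 13.3 in blank media, an early well below 20, to 31.7 in conditioned media.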

How the data were processed

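Media lysates were reverse transcribed with Megaplex primers, 3 μL of lysate per card, pre-amplified for 12 cycles without dilution and run for 40 cycles on TaqMan rodent array cards A and B. The authors read out Ct values with QuantStudio software and deposited them as such, not normalized. No source used here gives the threshold and baseline. A table of fold changes that the authors calculated between the media was not used, and the fluorescence height on which the study also filtered was not analysed here, so that detection rests on a Ct below 35 alone. Each sample held 768 wells, of which 18 were controls and left out of counts. Pre-amplification shifts every Ct to earlier cycles, and its error cannot be separated from that of the wells.

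Differences were conditioned minus blank Ct, with no reference. Every member was to be named, with U6 and other assays of the same hairpins, and detected assays of the lists could be named. No rat-named assay carried a member's number. The naming rule used no measured value, but members and lists were chosen with earlier results of these data known. The name miR-125b was taken as miR-125b-5p. RefSeq sequences were matched by name for 7 of the 11 assays and for miR-34c#. Alternatives were Ct limits of 32 and 38, any determined Ct, a difference limit of 3 cycles, added minor arms or rat-named assays, blank wells required to be undetermined, and U6 or card median references. Leaving out Ct values below 20 and the farthest U6 well were added after seeing the data. Classes and differences were first tested on simulated data. Python 3.11.15, pandas 2.3.3, numpy 2.4.6 and matplotlib 3.10.9 were used.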

Additional observations from a re-analysis of the deposited data

How the results depend on the processing

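No paired analysis was possible because there was 1 sample per condition, and for the same reason no replicate could be left out. Of 24 recalculated counts of member assays, 19 were within 1.5 times the reported count. Several of these 19 could not have differed. Adding rat-named assays changed nothing, because none carried a member's number. A Ct limit of 38 and any determined Ct also left the counts unchanged, because each member well was either detected or undetermined. The 19 are therefore not a measure of how stable the counts are. The number detected in blank media fell from 5 to 3 when assays with a Ct below 20 were left out, which removed miR-34a and miR-194. The number detected in conditioned media only rose from 1 to 2 at a Ct limit of 32, which miR-34b-3p did not reach in blank media, and to 2 with minor arms added, through miR-34c#. The number more than 5 cycles earlier in conditioned media was 2 at a limit of 3 cycles, with miR-449 added, and 0 relative to the mean of U6. Relative to the mean of U6, its median and its mean without the farthest well, the difference of miR-192 turned from -2.17 to 1.92, 2.93 and 3.18 cycles, and that of miR-449 from -3.99 to 0.09, 1.10 and 1.35 cycles. These turns follow from the shift of U6 by 4.08 to 5.34 cycles. miR-34b-3p stayed earlier in conditioned media under all 4 references, from -8.50 to -3.27 cycles, and miR-34a and miR-194 stayed later. Relative to U6, miR-34a and miR-194 were more than 5 cycles later. The 4 references are not separate checks. All but the card median summarise the same U6 wells, and the card median, at -0.115 cycles on card A, changed the differences very little.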
